A study of Mus musculus with 4 samples.

Results

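Genes of 10 proteins that bind AU-rich elements were examined in B16F10 mouse melanoma cells with reduced Lmna. The 10 were chosen by name, as Zfp36, Zfp36l1, Zfp36l2, Elavl1, Hnrnpd, Khsrp, Tia1, Tial1, Ybx1 and Auh, out of 24421 gene symbols in the deposited table, and 8 of them passed the filter on low counts and were tested among 9150 genes. Polyadenylated transcripts were counted at their 3′ ends by bulk MARS-seq in 4 libraries, 2 named shControl and 2 named shLmna. All 4 came from the same C57BL/6 line, grown in DMEM with serum, transduced with a lentiviral vector and selected with puromycin. The shLmna cells carried a short hairpin RNA directed at exon 8 of Lmna, which encodes the A-type lamins of the nuclear envelope. The shControl vector is called a control shRNA in the labels and an empty vector in the list of reagents, so an effect of carrying any hairpin and an effect of less Lmna cannot be told apart. Each group is a selected cell population. Separate cultures or transductions behind the 2 libraries of a group are not stated, so the p-values measure the spread between these libraries.

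AU-rich elements are stretches in the 3′ untranslated region (UTR) of many short-lived mRNAs, often built from the pentamer ATTTA in the DNA letters used here. Proteins that bind them set how long the mRNA lasts: Zfp36 family proteins, Hnrnpd and Khsrp mostly recruit the enzymes that shorten the poly(A) tail and degrade the message, while Elavl1 mostly protects it, and Tia1 and Tial1 mostly hold back its translation. Several of these proteins bind the mRNAs of their own family, and the elements are best known from mRNAs of cytokines, growth factors and early response genes.

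Library totals ranged from 2494880 to 3808843 counts. CPM values (counts scaled to a common library size, here by TMM) were not divided by length, because each molecule is tagged at its 3′ end. Lmna was read first as a check of the labels, with 2826 and 2684 counts in the shControl libraries against 331 and 480 in the shLmna libraries, a log2 difference of -2.61 (standard error, SE, 0.142, edgeR adjusted p = 7.93e-06). All log2 fold changes are given as shLmna minus shControl. The 7 melanocyte markers summed to between 20117 and 24602 CPM per library and none of them was at 0, while 9 markers of leukocytes, endothelial cells, keratinocytes and fibroblasts summed to between 1.58 and 5.09 CPM, with 5 of the 9 at 0 in all 4 libraries and 7 at 0 in shLmna 1. The melanocyte markers were not uniform. Of 6 tested, Pmel and Mlana were higher, at 0.41 and 0.51 (edgeR adjusted p = 0.0258 and 0.00510). Sox10 was lower, at -0.89 (edgeR adjusted p = 0.00161).

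The members' own mRNAs were searched for the element in the last 1000 bases of the annotated transcript (GENCODE M21 on GRCm38), the part from which MARS-seq reads come. The letters searched were ATTTA and the stricter heptamer TATTTAT, which contains the pentamer, on the transcript's own strand only, overlaps included. At least 1 pentamer was found in 9 of the 10 members and in 66.7% of the 8496 tested genes with 1000 bases, and at least 1 heptamer in 5 of the 10 and in 19.9% of those genes. Elavl1 had 10 pentamers and 8 heptamers, Zfp36l1 had 7 and 3, Zfp36l2 had 4 and 2, Zfp36 had 3 and 3, and Auh had 3 and 1. Ybx1 had neither. Transcripts that end at an earlier poly(A) site than the annotated one lie outside this count. From each of the 5 members with a heptamer, the stricter match, the 30 bases richest in pentamers are shown, with pentamers in capitals. A window need not hold the heptamer, and that of Zfp36l1 does not. Each window lies in the 3′ UTR within the last exon, on the minus strand, and is written 5′ to 3′.
Zfp36, chr7:28376959-28376988: ccctttATTTAtgacgactttATTTAttgt
Zfp36l1, chr12:80107814-80107843: tctttgtgtgaATTTATTTAaaagaaaaaa
Zfp36l2, chr17:84184691-84184720: ttaATTTAagagattgtatgtaatATTTAt
Elavl1, chr8:4285778-4285807: attATTTATTTATTTATTTAtttttATTTA
Auh, chr13:52835299-52835328: catgtcatATTTAttcagATTTAtaaagct
Elavl1 had 4 overlapping pentamers and a separate one in its window, the densest run among the members. The Zfp36l1 window held a pair of overlapping pentamers 60 bases before the annotated transcript end. A match of these letters is a description of the sequence and not a measured binding site.

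Zfp36l1 was the only tested member past the adjusted threshold of 0.05. Among the 8 tested members this was 12.5%, beside 15.2% of all tested genes, so the share was no higher than the background. It was also the only member that was lower by more than 1 on the log2 scale with a mean normalized count over 5, limits that 5.88% of tested genes met in that direction. The other 7 tested members had edgeR adjusted p-values from 0.115 to 0.918 and log2 fold changes of at most 0.53 in size. An unadjusted p under 0.05 was reached by 3 members. The median log2 fold change of the 8 was -0.16, beside -0.00 over all tested genes. In 5 of the 8, or 62.5%, the libraries of one group all lay on one side of the other group, which held for 60.1% of all tested genes.

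**Figure D1:**
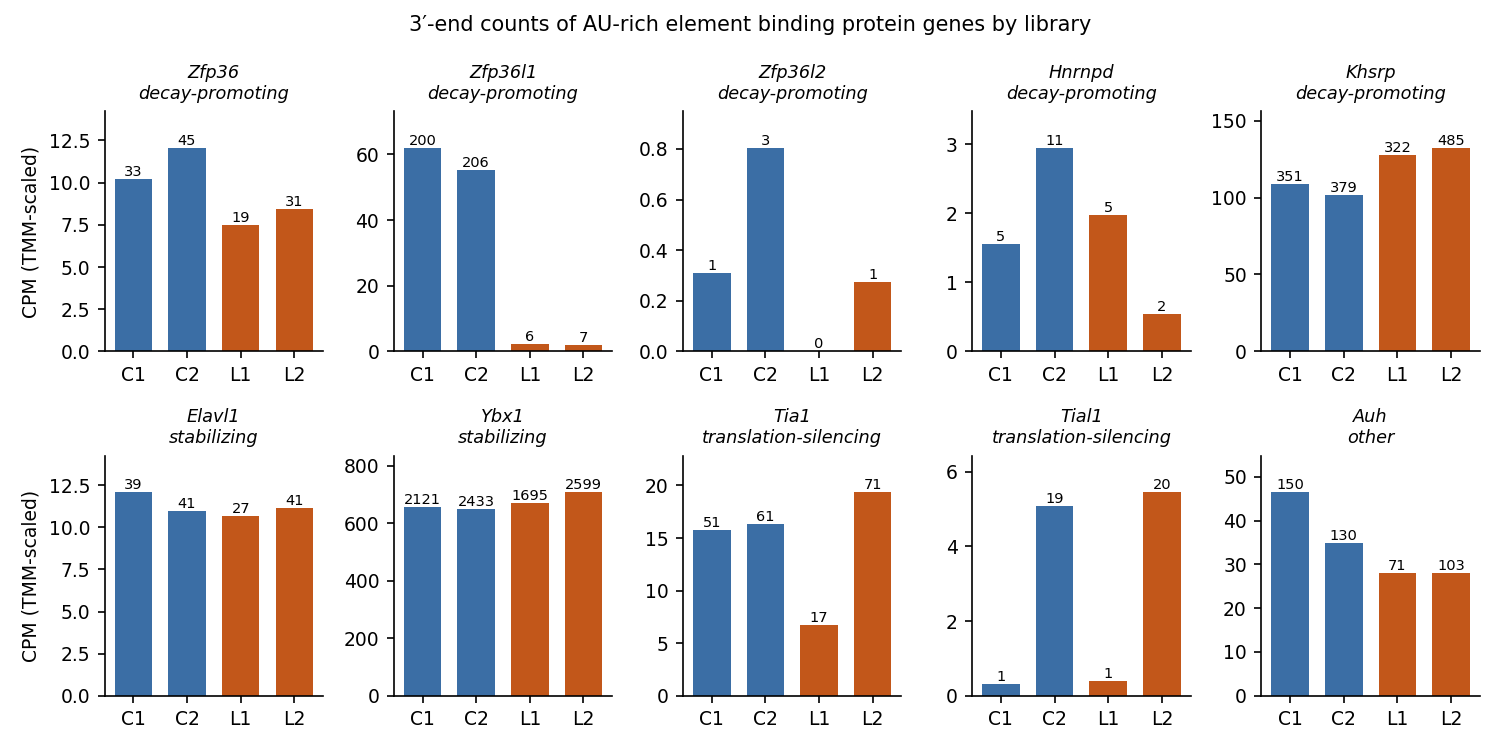
CPM of each of the 10 members in the libraries shControl 1 and 2 (C1, C2, blue) and shLmna 1 and 2 (L1, L2, orange), 1 bar per library, with the raw count above it and a separate vertical scale per gene. Zfp36l1 stood at 200 and 206 counts in the blue bars and 6 and 7 in the orange bars, and no other member had a gap of that size.

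The Zfp36 family came first among the decay-promoting members. Zfp36l1 (chr12:80107754-80113013, minus strand, 2 exons) encodes a zinc finger protein, also known as BRF1, that binds the element and brings in the CCR4-NOT deadenylase. The shControl libraries held 200 and 206 counts of it and the shLmna libraries 6 and 7, or 61.9 and 55.2 CPM against 2.37 and 1.91 CPM. The groups did not overlap, and the shLmna counts were small but above the floor of 3 counts. The mean fell from 58.6 ± 4.80 to 2.14 ± 0.329 CPM (SD, n = 2 each), a log2 fold change of -4.77 (SE 0.275, 95% interval -5.39 to -4.16, edgeR adjusted p = 8.07e-06). In linear terms the level was 27.4-fold lower, a drop of 96.3%. It ranked 13 by p among 9150 tested genes, and 83 genes (0.907%) had a log2 fold change as low or lower. In bulk libraries, fewer cells with the transcript and less transcript in each cell cannot be told apart, and the protein was not measured. Transcripts that end before the counted 3′ end are missed, and a change of poly(A) site was not tested.

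The size of the Zfp36l1 change depended on the values used, although it passed the adjusted threshold under each of 13 alternatives. Leaving out any 1 library gave -4.91 to -4.60, and DESeq2 gave -4.80. GC made up 31.1% of its last 1000 bases, the lowest of the 10 members, and many messages with such ends were lower in shLmna. Of 134 tested genes whose last 1000 bases held at most 32% GC, 80 (59.7%) were lower and 5 (3.73%) higher at the adjusted threshold, with a median log2 fold change of -2.11, and 19 of the 134 (14.2%) were as low as Zfp36l1 or lower. Corrections of each library for GC content left Zfp36l1 at -4.10 with a robust trend and at -3.02 with a mean trend. In the authors' batch-corrected log2 values, where differences were smaller in general, it was -0.95, which is under the limit of 1. The part of GC content in the change was not tested beyond these corrections.

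Zfp36 (chr7:28376784-28380253, minus strand) encodes tristetraprolin, the founding member of the family and a fast-induced brake on inflammatory mRNAs. It was counted 33 and 45 times in the shControl libraries and 19 and 31 times in the shLmna libraries, or 10.2 and 12.0 CPM against 7.51 and 8.45 CPM. Both shLmna libraries were below both shControl libraries. The log2 fold change was -0.47 (SE 0.289, 95% interval -1.12 to 0.17, edgeR adjusted p = 0.311), so the difference did not pass the test, and the interval runs from a marked drop to a small gain. Zfp36l2 (chr17:84183931-84187947, minus strand), the third family member with the same type of zinc fingers, had 1 and 3 counts in the shControl libraries and 0 and 1 in the shLmna libraries. No library exceeded the floor of 3 counts, so it was not tested and no fold is given.

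Summed over the 3 genes, the Zfp36 family stood at 72.5 and 68.0 CPM in shControl and at 9.89 and 10.6 CPM in shLmna. Zfp36l1 made up 85.5% and 81.1% of the family's counts in the shControl libraries and 24.0% and 17.9% in the shLmna libraries. By these CPM, Zfp36 was the more abundant family transcript in both shLmna libraries, at a level no higher than in shControl. The sums and shares were not corrected for GC content. With the GC corrections the Zfp36l1 log2 fold change was smaller in size, at -4.10 or -3.02. Zfp36l3, the remaining family gene of the mouse, had 0 counts in each library.

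The other decay-promoting members lie outside this family. Khsrp (chr17:57021051-57031522, minus strand) encodes KSRP, a KH-domain protein that hands mRNAs to deadenylase and exosome. With 351 and 379 counts in the shControl libraries and 322 and 485 in the shLmna libraries, it stood at 108.7 and 101.5 CPM against 127.4 and 132.1 CPM. Both shLmna libraries were above both shControl libraries in CPM. The mean was 105.1 ± 5.13 CPM in shControl and 129.7 ± 3.38 CPM in shLmna (SD, n = 2 each), a log2 fold change of 0.31 (SE 0.124, 95% interval 0.03 to 0.58). The unadjusted p was 0.0342 and the edgeR adjusted p 0.131.

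Hnrnpd (chr5:99955935-99978938, minus strand) encodes AUF1, whose splice forms mostly speed up decay but can also protect some targets. Counts of 5 and 11 were found in the shControl libraries and of 5 and 2 in the shLmna libraries, or 1.55 and 2.95 CPM against 1.98 and 0.545 CPM. The groups overlapped, and it did not pass the filter on low counts. The ratio of summed counts, scaled for library size, was 0.491 with an exact 95% interval of 0.171 to 1.26 that covers counting error only, so a difference was not detectable at this depth. Counting at 3′ ends does not separate its splice forms.

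Among the stabilizing members, Elavl1 (chr8:4285382-4325413, minus strand) encodes HuR, the widely expressed member of the Elav family, which binds the same elements as the Zfp36 proteins. The shControl libraries gave it 39 and 41 counts and the shLmna libraries 27 and 41, or 12.1 and 10.98 CPM against 10.7 and 11.2 CPM. The groups overlapped. The log2 fold change was -0.07 (SE 0.265, 95% interval -0.66 to 0.52, edgeR adjusted p = 0.890), and its sign turned, to 0.086, with the GC correction by the mean trend. The neuronal members of that family, Elavl2, Elavl3 and Elavl4, had 0 counts in each library.

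Ybx1 (chr4:119277981-119294604, minus strand) encodes a cold-shock domain protein that coats and protects many mRNAs, with and without AU-rich elements. It was the most abundant member, with 2121 and 2433 counts in the shControl libraries and 1695 and 2599 in the shLmna libraries, or 657 and 651 CPM against 670 and 708 CPM. The shLmna libraries lay above the shControl libraries by a narrow margin. The log2 fold change was 0.08 (SE 0.113, 95% interval -0.18 to 0.33, edgeR adjusted p = 0.701). Of the 31-base stretches in its last 1000 bases, 44.5% occur in other annotated genes as well, against 0 to 0.309% for the other members, so its counts are uncertain where reads were shared with near-identical copies.

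The translation-silencing pair was uneven between libraries of the same group, Tia1 in shLmna and Tial1 in both groups. Tia1 (chr6:86404219-86433405, plus strand) encodes a protein that gathers stalled mRNAs in stress granules. The shControl libraries held 51 and 61 of its tags and the shLmna libraries 17 and 71, or 15.8 and 16.3 CPM against 6.72 and 19.3 CPM. The shLmna libraries lay on either side of the controls. The log2 fold change was -0.24 (SE 0.386, 95% interval -1.11 to 0.62, edgeR adjusted p = 0.720), and it was 0.27 without shLmna 1. Tial1 (chr7:128439777-128461717, minus strand), the gene of the related protein TIAR, was counted 1 and 19 times in the shControl libraries and 1 and 20 times in the shLmna libraries, or 0.310 and 5.09 CPM against 0.396 and 5.45 CPM. Within each group the 1st library held a single count and the 2nd about as many as its counterpart, and the log2 fold change of 0.20 had an interval of -1.95 to 2.36 (SE 0.964, edgeR adjusted p = 0.918). Without shControl 1 it was -0.62, and without shLmna 2 it was -2.71, so no direction can be given.

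Auh (chr13:52835119-52929681, minus strand) encodes a mitochondrial enzyme of leucine breakdown that was also isolated as a protein binding AU-rich RNA. Its 3′ end was counted 150 and 130 times in the shControl libraries and 71 and 103 times in the shLmna libraries, or 46.5 and 34.8 CPM against 28.1 CPM in both shLmna libraries. Both shLmna libraries were below both controls. The log2 fold change was -0.53 (SE 0.205, 95% interval -0.99 to -0.07), with an unadjusted p of 0.0278 and an edgeR adjusted p of 0.115. Its adjusted p was 0.0266 without shControl 2, where the log2 fold change was -0.73, and 0.395 without shControl 1, where it was -0.31.

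**Figure D2:**
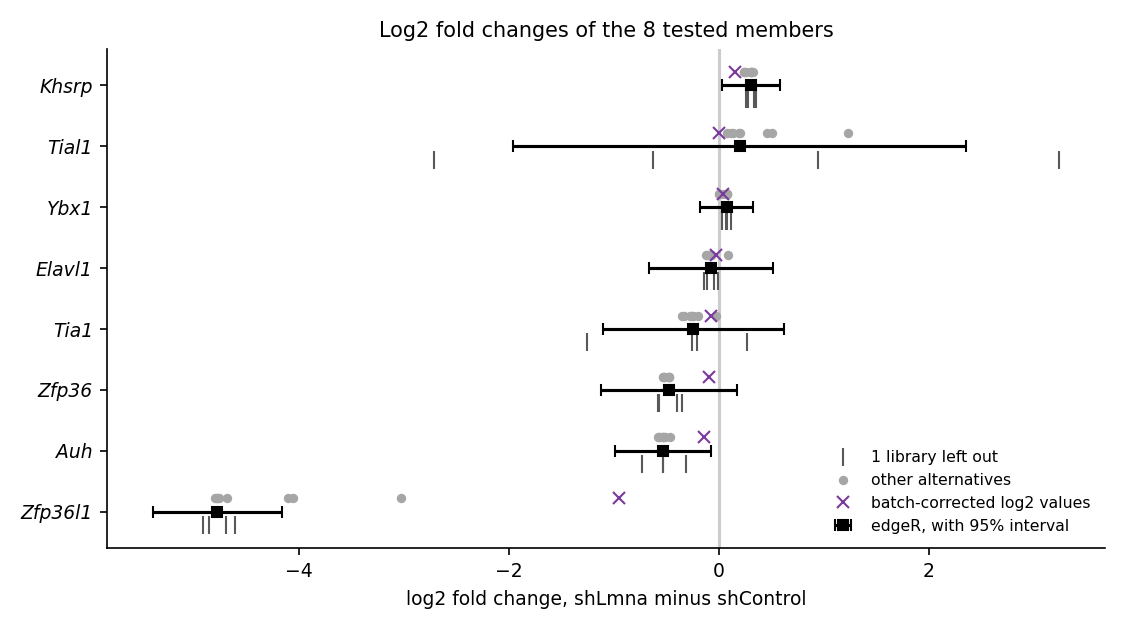
Log2 fold change (shLmna minus shControl, horizontal axis) of the 8 tested members: squares with bars are the edgeR estimates with 95% intervals, ticks leave out 1 library, grey points are other alternatives and crosses the batch-corrected log2 values. Zfp36l1 stands apart at -4.77, the intervals of Khsrp and Auh exclude 0 before adjustment over all genes, and the ticks of Tia1 and Tial1 fall on both sides of 0.

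Decay-promoting members were then set against stabilizing members in each library, by summed CPM. The 5 decay-promoting genes summed to 182.7 and 172.4 CPM in shControl and to 139.2 and 143.3 CPM in shLmna. Elavl1 and Ybx1 summed to 669 and 662 CPM in shControl and to 681 and 719 CPM in shLmna. Nearly all of this was Ybx1, at 657 and 651 CPM in shControl and 670 and 708 CPM in shLmna. The difference of Ybx1 did not pass the test (edgeR adjusted p = 0.701). The decay-promoting sum was lower in both shLmna libraries and the stabilizing sum was higher in both. Their ratio was 0.273 and 0.260 in shControl and 0.204 and 0.199 in shLmna, a mean difference of -0.40 on the log2 scale, beside a spread between replicates of 0.0393 (SD). No test was run on this ratio: the members were chosen with results known, and 2 against 2 libraries cannot go below an exact p of 0.33.

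This shift of the summed levels lay in Zfp36l1. Without it the decay-promoting sum was 120.8 and 117.3 CPM in shControl and 136.8 and 141.4 CPM in shLmna, higher in both shLmna libraries. Khsrp supplied 59.5% and 58.9% of the decay-promoting counts in shControl and 91.5% and 92.2% in shLmna. With Ybx1 left out, so that Elavl1 alone stood for stabilizing factors, the mean difference was -0.25. Between the Zfp36 family and Elavl1, which compete for the same elements, the ratio of levels was 6.00 and 6.20 in the shControl libraries and 0.926 and 0.951 in the shLmna libraries. These are ratios of transcript levels counted at 3′ ends, without a GC correction, and the amounts of protein were not measured.

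**Figure D3:**
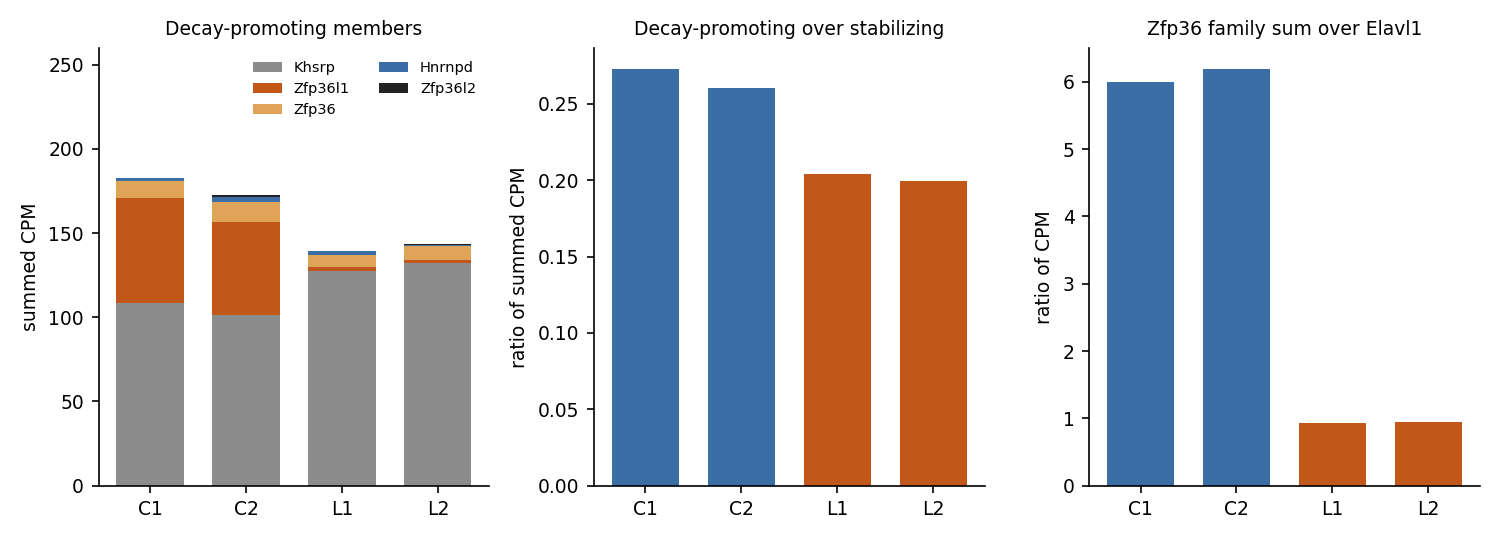
For shControl 1 and 2 (C1, C2) and shLmna 1 and 2 (L1, L2), the left panel stacks the CPM of the 5 decay-promoting members, the middle panel gives their sum over that of Elavl1 and Ybx1, and the right panel the Zfp36 family sum over Elavl1. The Zfp36l1 segment nearly vanished in shLmna while Khsrp stayed, and the family ratio went from 6.00 and 6.20 to 0.926 and 0.951.

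Other genes of the pathway were read from lists chosen by function. Of 22 further AU-rich element binding proteins 17 were tested, and 4 were lower and 2 higher at the adjusted threshold, where 9.74% of all tested genes were lower and 5.48% higher. Their median log2 fold change was -0.13. Celf1, which binds GU-rich as well as AU-rich elements and promotes deadenylation, fell from 302 and 334 counts to 114 and 132, a log2 difference of -1.19 (SE 0.158, edgeR adjusted p = 0.000958). Hnrnpdl, a paralog of Hnrnpd, was lower at -1.11 (edgeR adjusted p = 0.00564), and Hnrnpa0, a substrate of the kinase MK2, was higher at 1.59 (edgeR adjusted p = 0.00398). Fubp1, a relative of Khsrp, was at -2.50 (edgeR adjusted p = 0.0104), Hnrnpc at -0.86 (edgeR adjusted p = 0.0320) and Rc3h2, the gene of Roquin-2, at 0.93 (edgeR adjusted p = 0.0146). These last 3 calls did not hold under every alternative: Fubp1 lost it with DESeq2, without shLmna 2 and with the GC correction by the mean trend, where it was -0.70, Hnrnpc with DESeq2, without shLmna 1 and with that GC correction, and Rc3h2 without shLmna 1.

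The decay machinery that these proteins recruit was represented by 32 genes, of which 28 were tested, with 1 lower and 3 higher. These 4 of 28 were close to the 15.2% of all tested genes past the threshold in either direction. The median log2 fold change was 0.17. The lower gene was Cnot6, which encodes CCR4a, a catalytic deadenylase subunit of CCR4-NOT. Its 3′ end was counted 232 and 282 times in the shControl libraries and 6 and 8 times in the shLmna libraries, or 73.7 ± 2.57 against 2.28 ± 0.137 CPM (SD, n = 2 each), a log2 difference of -5.00 (SE 0.248, edgeR adjusted p = 6.28e-06). Like Zfp36l1 it has an end of low GC content, at 32.9%, with 7 pentamers. It passed under each of 13 alternatives, with log2 fold changes from -5.06 to -1.07. Exosc9, a subunit of the exosome, was higher with 205 and 249 counts against 313 and 436 (log2 fold change 0.90, edgeR adjusted p = 0.00156). Cnot2, a scaffold subunit, and Patl1, a decapping activator, had log2 fold changes of 0.50 and 0.61 (edgeR adjusted p = 0.0289 and 0.0428), and lost the call in 3 and 6 of 13 alternatives, among them leaving out shLmna 1 and leaving out shLmna 2.

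Regulators of the binding proteins showed calls mainly among 14-3-3 proteins, which bind phosphorylated Zfp36 proteins and keep them inactive. Of 19 listed kinases, phosphatases and adaptors 18 were tested, with 4 lower and 1 higher, beside 9.74% and 5.48% of all tested genes, and a median log2 fold change of -0.13. Ywhaq had 651 and 976 counts in the shControl libraries and 36 and 58 in the shLmna libraries (log2 fold change -3.93, SE 0.187, edgeR adjusted p = 6.28e-06). Ywhae was lower at -0.86 (edgeR adjusted p = 0.00709) and Ywhah at -1.42 (edgeR adjusted p = 0.0106), while Ywhaz was higher at 0.82 (edgeR adjusted p = 0.00149). The listed 14-3-3 genes Ywhab, Ywhag and Sfn, at 0.08, 0.37 and -1.27, did not pass (edgeR adjusted p = 0.713, 0.126 and 0.0689). Ppp2ca, whose phosphatase product acts on tristetraprolin, was lower at -2.70 (SE 0.297, edgeR adjusted p = 0.000312). Ywhae had an adjusted p of 0.0522 without shLmna 1, and Ywhah lost its call with DESeq2 and was at -2.26 without shLmna 2. Mapk14 and Mapkapk2, the kinases p38α and MK2 that phosphorylate tristetraprolin, had log2 fold changes of 0.10 and 0.03 (edgeR adjusted p = 0.637 and 0.914).

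**Figure D4:**
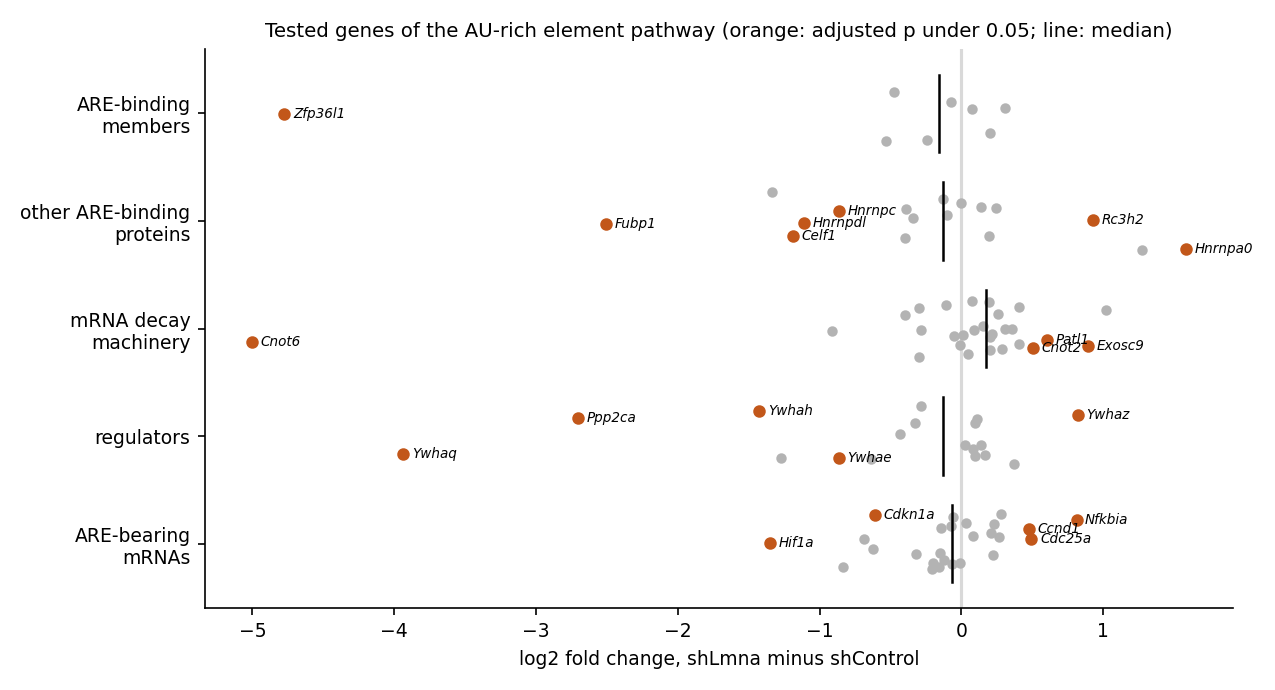
Log2 fold change (shLmna minus shControl) of each tested gene of the 10 members and of the lists of other binding proteins, decay machinery, regulators and AU-rich element bearing mRNAs. Orange points have an edgeR adjusted p under 0.05 and are named, grey points do not, and the black line is the list's median, between -0.16 and 0.17 in each row. Zfp36l1, Cnot6 and Ywhaq lie below -3.9.

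Messages known to carry AU-rich elements formed the last list. Of 40 listed, 26 were tested, 2 were lower and 3 higher, beside 9.74% and 5.48% of all tested genes, and the median log2 fold change was -0.07. Many cytokine genes of the list, such as Tnf, Il6 and Cxcl1, did not pass the filter on low counts. Hif1a, the hypoxia transcription factor, fell from 219 and 273 counts to 66 and 106 (log2 fold change -1.35, SE 0.163, edgeR adjusted p = 0.000514). GC made up 32.1% of its last 1000 bases, and its value turned to 0.21 (adjusted p = 0.487) with the GC correction by the mean trend, so its direction depends on that scaling. Cdkn1a, the cell cycle inhibitor p21, was lower at -0.61 (edgeR adjusted p = 0.00853), and Nfkbia, the inhibitor of NF-κB, was higher at 0.81 (edgeR adjusted p = 0.0103). Cdc25a and Ccnd1, which drive the cell cycle, were higher at 0.49 and 0.48 (edgeR adjusted p = 0.0251 and 0.0300). Among these 5, the calls of Cdkn1a, Nfkbia, Cdc25a and Ccnd1 were lost without shLmna 1, and those of Nfkbia, Cdc25a and Ccnd1 also without shLmna 2.

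A window of 30 bases from each of 3 of these messages is shown, with the pentamer in capitals, because the messages carry few of the elements beside the binding proteins above: Nfkbia and Ccnd1 had 2 pentamers each in the last 1000 bases and Hif1a had 1. Each window lies in the 3′ UTR of the last exon, Nfkbia and Ccnd1 on the minus strand and Hif1a on the plus strand.
Nfkbia, chr12:55489608-55489637: aggaccacgttttATTTAttgtgcttttga
Ccnd1, chr7:144930698-144930727: cctcatagagtgtATTTAcagatgcccttt
Hif1a, chr12:73946952-73946981: cgatttctcaaaaATTTAagttctttataa
In the last 1000 bases, 23 of the 26 tested messages held at least 1 pentamer, while Cdkn1a and Cdc25a held none. A split by pentamers was chosen after these values were seen and was not tested. Of the 14 messages with 3 or more pentamers, 0 passed the adjusted threshold with edgeR or with DESeq2 and 2, Vegfa and Sgk1, had an unadjusted p under 0.05. Their log2 fold changes ran from -0.84 for Sgk1 to 0.26 for Pim1, with a median of -0.16. Vegfa, with 9 pentamers, was at -0.62 (edgeR adjusted p = 0.0925), Fos at -0.12 (edgeR adjusted p = 0.907) and Ier3 at -0.06 (edgeR adjusted p = 0.830). The 12 messages with fewer pentamers had a median of 0.21 and held all 5 calls. Over all tested genes with 1000 bases the share past the adjusted threshold ran the other way. The median log2 fold change did not, at -0.007 with 0 pentamers, -0.017 with 3 to 4 and -0.048 with 5 or more. There 15.8% were lower and 6.97% higher with 3 to 4 pentamers, and 21.3% and 7.45% with 5 or more. With 0 pentamers, 6.33% were lower and 4.21% higher.

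Pentamers were last counted in all 8496 tested genes with 1000 bases, to place the members among them. The share of genes that were lower at the adjusted threshold was 6.33% with 0 pentamers, 8.79% with 1, 9.60% with 2, 15.8% with 3 to 4 and 21.3% with 5 or more. The share that was higher ran from 4.21% to 7.45% in the same order, and the median log2 fold change stayed between -0.05 and 0.02. GC content moved with this count, from a median of 51.9% with 0 pentamers to 36.8% with 5 or more. Within genes of 36 to 42% GC, the share that was lower was 12.5%, 13.8%, 10.6%, 13.1% and 12.7% over the same classes, with no order. In genes of 36% GC or less, which include Zfp36l1, it was 9.52% of 21 genes with 0 pentamers and 35.6%, 41.4%, 43.5% and 36.3% in the classes above. These shares are across genes of the same 4 libraries, and genes are not independent replicates.

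**Figure D5:**
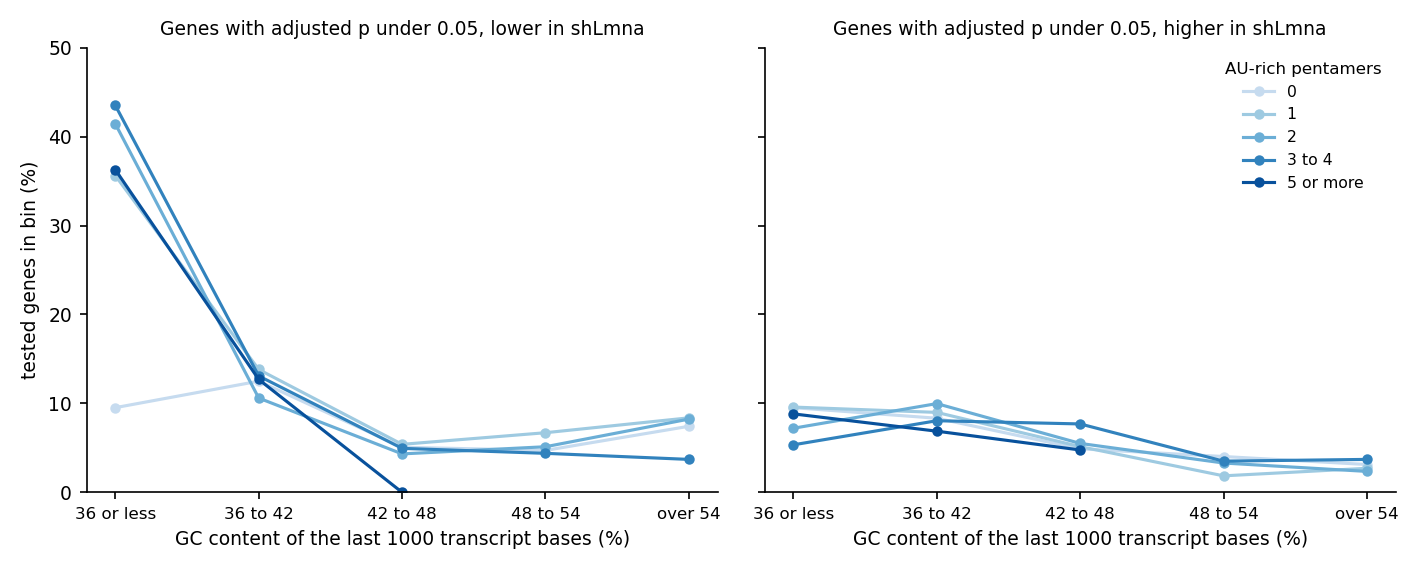
Percent of tested genes that were lower (left) or higher (right) in shLmna at an edgeR adjusted p under 0.05, against the GC content of the last 1000 transcript bases (%), with 1 line per number of ATTTA pentamers; bins under 20 genes are left out. Genes of 36% GC or less with 1 or more pentamers reached 35.6% to 43.5% lower, whereas at 36 to 42% GC all 5 lines lay between 10.6% and 13.8%.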

How the data were processed

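Bulk MARS-seq, which primes at the poly(A) tail, was read in 2 shControl and 2 shLmna libraries, grouped by the sample titles. The authors trimmed reads with Cutadapt, aligned them to mm10 with STAR 2.4.2a and assigned them with HTSeq to 3′ ends of RefSeq genes in the UTAP pipeline. The deposited matrix holds raw counts per gene symbol, on which all main tests were run. A second table deposited by the authors holds a normalized signal, a gene's count divided by a DESeq2 size factor. In each library 100% of its values came out as whole multiples of 1 step, within 0.01 of a step, so counts were recovered from it. The matrix was 1.08 to 1.09 times these recovered counts, and whether UMI duplicates account for this is not stated. Another deposited table holds log2 values that the authors corrected for batch with ComBat, the batches being unnamed. The authors' own p-values and adjusted p-values were not used, and 0 other columns of per-sample values were left out.

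The groups were compared by edgeR 4.0.16 under R 4.3.3, with its quasi-likelihood F test (TMM, default filterByExpr with a minimum count of 10, group as the one term, two-sided, Benjamini-Hochberg over 9150 genes). The biological coefficient of variation was 0.126. A member was called at an adjusted p under 0.05, a log2 fold change over 1 in size and a mean normalized count over 5. Standard errors and 95% intervals come from the F statistic, and SD is over the 2 libraries of a group. Replicates differed by more than sampling noise (chi-square per degree of freedom 6.96 in shControl and 3.91 in shLmna). The floor of 3 counts equals 0.803 to 1.19 CPM. Floors and count intervals cover counting error only. Alternatives used DESeq2 1.42.0, RLE factors, no filter, recovered counts, limma 3.58.1 on the log2 values, per-library GC offsets and each library left out in turn. The code was tested on simulated data. GENCODE M21 matched 99.5% of tested genes.

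The members, lists and roles were chosen with earlier results of these data known. Named genes are the 10 members, Lmna and, per list, up to 6 genes with an adjusted p under 0.05. Genes named for their counts of 0, as kinases or for pentamers were added after their values were seen.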

Additional observations from a re-analysis of the deposited data

How the results depend on the processing

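Of the members, Zfp36l1 passed the adjusted threshold in each of the 13 alternatives and Lmna did as well, with log2 fold changes of -2.74 to -1.54 for Lmna. In the batch-corrected log2 values, which limma tested, Zfp36 (-0.091, adjusted p = 0.0269), Khsrp (0.15, adjusted p = 0.0242) and Auh (-0.14, adjusted p = 0.0385) also passed, giving 4 members past the threshold and 0 over the fold limit. Their adjusted p-values ranged to 0.782, 0.422 and 0.412 over the alternatives. The same values gave 12 calls among other binding proteins, 15 in the decay machinery, 9 among regulators and 10 among AU-rich element bearing mRNAs, against 6, 4, 5 and 5. The share of all genes past the threshold is given here for the main fit only. Counts under the alternatives therefore do not set the members or the lists apart from other genes. DESeq2 gave 2 in the decay machinery and 3 among the bearing mRNAs. Elavl1 turned to 0.086 with the GC correction by the mean trend, which, like the range of 36 to 42% GC, was chosen after seeing the data. Leaving out 1 library gave -0.73 to -0.31 for Auh, -1.25 to 0.27 for Tia1 and -2.71 to 3.24 for Tial1, where the value was -0.62 without shControl 1. It gave 1 to 2 members past the threshold, the 2 without shControl 2. In the lists it gave 2 to 6 calls in the decay machinery (2 without either shLmna library), 4 to 8 among regulators (8 without shControl 1) and 1 to 5 among bearing mRNAs (1 without shLmna 1 and 2 without shLmna 2). The log2 difference of decay-promoting over stabilizing sums, -0.40, was -0.25 without Ybx1. Genes with 5 or more pentamers had a median log2 fold change -0.04 from that of genes with 0, and 0.051 within 36 to 42% GC. The sign of this difference also turned with the heptamer in place of the pentamer, at 0.00725, and with the GC correction, at 0.00204. The causes were not tested. Of 205 alternatives computed, 181 were labelled as the same, by side of the threshold and direction or by a count within 1.5 times. The 181 include the heptamer and GC-corrected values of the pentamer difference, although their sign turned.

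With the replicate number as a block, Zfp36l1 was at -4.76 (edgeR adjusted p = 6.49e-30) and at -4.05 with the GC correction added, 1 member passed in both, and no member's call changed. The block uses the same libraries and leaves fewer residual degrees of freedom. Its smaller p is not read as stronger evidence, and what made it smaller was not tested. The replicate block raised the calls among other binding proteins from 6 to 9 and in the decay machinery from 4 to 6. The share of all tested genes past the threshold with the block is not given here. The rise is therefore not read as particular to these lists. The numbers are only labels here, as the deviations of same-numbered libraries correlated at 0.0106 across 9150 genes in 2 pairs.

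With 2 libraries per group, members under about 20 counts (Zfp36l2, Hnrnpd and Tial1) could not be resolved. The 3′ counts show levels of transcripts that reach the counted end, and neither decay rates nor protein. A change of poly(A) site was not tested.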
